A study of Mus musculus with 6 samples.

Results

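Mature dendritic cells (DCs) that carried Ccr7 and no Il12b were picked out of 3 droplet libraries of cultured bone marrow-derived DCs and described across genes. A cell belonged to them when it held at least 5 UMIs of Ccr7, at least 3 UMIs of Fscn1 and 0 UMIs of Il12b, where a UMI (unique molecular identifier) stands for 1 captured RNA molecule. The members were thus chosen by their measured Ccr7, Fscn1 and Il12b UMIs, and these genes serve as a description and support nothing. Barcodes entered this choice when they had 300 or more genes, less than 100000 UMIs and a mitochondrial share below 10%. The rule found 4409 members among 24051 kept cells of 26792 barcodes. They were 1963 of 7257 untreated cells (27.0%, 95% interval 26.0 to 28.1), 1972 of 8825 VD3 stimulated cells (22.3%, 21.5 to 23.2) and 474 of 7969 Ndrg2-KO cells (5.95%, 5.44 to 6.49). Cells that met both lower limits but held Il12b UMIs numbered 460, 379 and 202, and were counted with the other cells of their library unless compared on their own.

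The series compared tolerogenic and gene-edited DCs as a cell therapy for wounds and holds 6 libraries, of which the 3 from DC cultures entered this comparison. All 3 cultures came from bone marrow of C57/BL6 mice grown with GM-CSF, and the cells in suspension were used. VD3 stimulated DCs received calcitriol, the active form of vitamin D3, at 1e-06 M for 24 h from day 7, whereas Ndrg2-KO DCs were nucleofected with Cas9 protein carrying 3 guides against Ndrg2. The untreated DCs are not described as nucleofected, so the electric pulse and Cas9 cannot be told apart from the loss of Ndrg2. Each condition had 1 library, so that differences between libraries could not be set against replicates and are given with no p-value. The intervals given are exact 95% intervals and cover counting error only.

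DCs take up antigen in tissues and mature on danger signals, after which they travel to lymph nodes and prime T cells. Maturation brings on the chemokine receptor Ccr7, which steers cells along Ccl19 and Ccl21, and the actin-bundling protein fascin (Fscn1). It also raises costimulatory ligands and NF-kB signalling and lowers uptake receptors. Il12b encodes the p40 chain shared by IL-12 and IL-23, cytokines that drive inflammatory T cell responses, and mature DCs can take on the migratory programme with or without it.

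The depth of the members differed between libraries. Their median was 15696 UMIs in the untreated, 15066 in the VD3 and 10719.5 in the Ndrg2-KO library, against 15929, 10508 and 16669 in the other cells. Since the rule uses fixed numbers of UMIs, a shallow cell met it less easily. Drawing all cells down to 5000 UMIs left out 1201 untreated, 2464 VD3 and 526 Ndrg2-KO cells below that depth, nearly all of them not members. Among the 6056, 6361 and 7443 cells that remained, the rule on all UMIs held for 32.2%, 30.8% and 6.22%. Chosen after drawing, with limits lowered to 2 Ccr7 and 1 Fscn1 UMIs, members were 1942, 2086 and 705 cells, or 32.1%, 32.8% and 9.47% of the cells that remained and 26.8%, 23.6% and 8.85% of all kept cells. The Ndrg2-KO share was the lowest in each of these counts. Between 11 and 13 members per library were below 5000 UMIs and were left out wherever cells were drawn to that depth. The median share of mitochondrial UMIs was 5.60%, 6.13% and 7.17% in members and 5.15%, 5.31% and 6.57% in other cells. The libraries shared 11 to 19 barcodes among kept cells and 0 among members. Of the members, 10.1 to 13.5% had doublet scores in the highest 6% of their library, compared with 3.87 to 5.96% of the other cells.

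The 5 marker genes that go with these cells were checked first. Ccr7 (ENSMUSG00000037944, chr11:99144196-99155077 on the minus strand of GRCm38) was counted at 1016, 1306 and 1117 UMIs per 1000000 (CPM) in the members of the untreated, VD3 and Ndrg2-KO libraries, against 188, 448 and 168 CPM in the other cells. Fscn1 (chr5:142960343-142973185) stood at 593, 431 and 469 CPM against 70.2, 59.9 and 23.2 CPM. Both genes chose the members, and their height there is a result of the rule. The other markers did not enter it. Ccl22, a chemokine that attracts Ccr4-bearing T cells, was at 2883, 1482 and 2154 CPM in members and at 565, 498 and 363 CPM in other cells. Cacnb3, a calcium channel subunit, was at 550, 490 and 595 CPM against 111, 178 and 92.4 CPM. Socs2, an inhibitor of cytokine signalling, was at 609, 548 and 534 CPM against 199, 323 and 285 CPM. All 3 were higher in the members of every library, although for Socs2 the distance was under 2-fold in the VD3 and Ndrg2-KO libraries, with log2 ratios of 0.76 and 0.91. The list of mature DC markers holds 8 genes besides Ccr7 and Fscn1. At 5000 UMIs per cell, at least 3 of these 8 were found in 1949 of 1950 untreated, 1957 of 1960 VD3 and 462 of 463 Ndrg2-KO members. The same held for 33.5%, 49.5% and 43.9% of the other cells. These shares describe cells chosen by 2 genes of the same programme and are no test of the label.

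**Figure D1:**
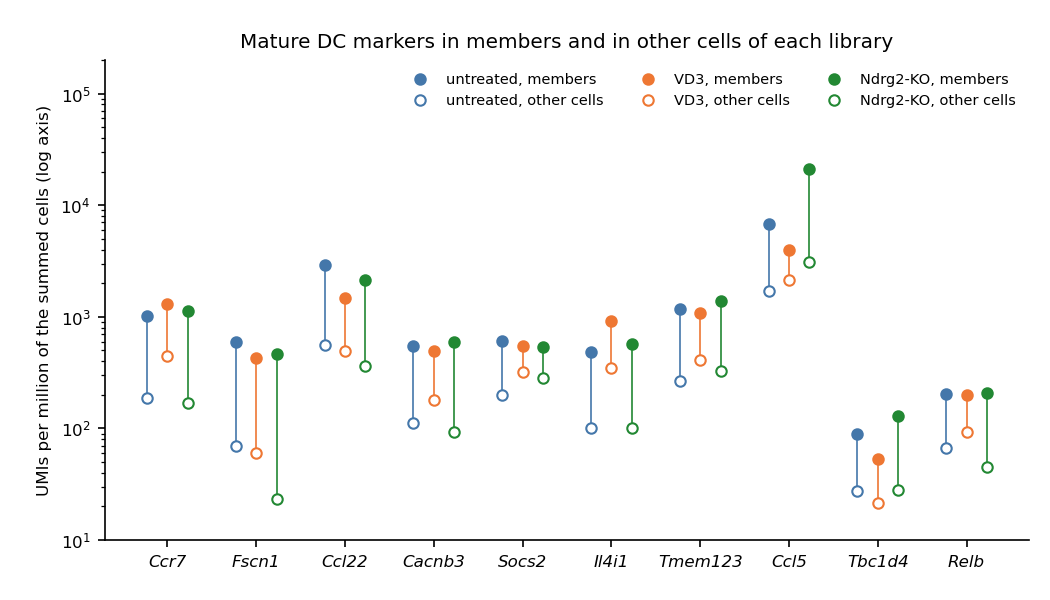
Levels of the 10 mature DC markers in members (filled circles) and in other cells (open circles) of the untreated, VD3 and Ndrg2-KO libraries, in CPM of the summed cells on a log axis, with a line joining both values of a library. Ccr7 and Fscn1 chose the members. For Ccl22 the filled circles lie at 2883, 1482 and 2154 CPM and the open ones at 565, 498 and 363 CPM.

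Ccl22 was not always lower just outside the limits than just inside them. Untreated members with 5 or 6 Ccr7 UMIs (68 cells) held 1682 CPM of Ccl22 and 46 cells with 3 or 4 Ccr7 UMIs, which missed the rule, held 2798 CPM. Likewise, 132 untreated members with 3 Fscn1 UMIs were at 2281 CPM and 136 cells with 2 Fscn1 UMIs at 2517 CPM of Ccl22. In the VD3 library 313 cells with 2 Fscn1 UMIs stood outside the rule at 1245 CPM of Ccl22, next to 327 members with 3 UMIs at 1334 CPM, while 32 cells with 3 or 4 Ccr7 UMIs were at 1558 CPM and 48 members with 5 or 6 at 1088 CPM. In the Ndrg2-KO library 50 members with 5 or 6 Ccr7 UMIs were at 2080 CPM and 39 cells with 3 or 4 at 1588 CPM of Ccl22, while 103 members with 3 Fscn1 UMIs were at 1586 CPM and 189 cells with 2 at 1750 CPM. With a single Fscn1 UMI required, the shares of members were 30.7%, 30.2% and 11.3%.

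Compared with the other cells of their own library, 279 of 10906 genes (2.56%) were at least 2-fold higher in the members of all 3 libraries and 992 (9.1%) were at least 2-fold lower, with Ccr7 and Fscn1 among the former and Il12b among the latter by the rule. Within the untreated, VD3 and Ndrg2-KO libraries taken singly, 7.53%, 3.84% and 7.6% of the genes tested were at least 2-fold higher and 21.9%, 15.5% and 16.9% at least 2-fold lower, and the counts of each list below stand beside these shares. Of the 8 mature DC markers outside the rule, 8 were at least 2-fold higher in the untreated, 6 in the VD3 and 7 in the Ndrg2-KO library. Ccl5, a chemokine for T cells and monocytes, was the other marker besides Socs2 to miss the 2-fold mark, with 3952 CPM in members and 2149 CPM in other cells of the VD3 library. Outside the lists, the genes furthest above the other cells in the library with the smallest distance were Calcb, Aoc1 and Dscaml1. Calcb, which encodes a calcitonin gene-related peptide, was at 13.4, 6.40 and 20.1 CPM in members and at 2.04, 1.07 and 1.09 CPM in other cells. Aoc1, a diamine oxidase that breaks down histamine, was at 2.83, 2.48 and 19.3 CPM against 0.570, 0.559 and 3.88 CPM. Dscaml1, a cell adhesion molecule best known from neurons, was at 17.4, 2.89 and 14.4 CPM against 3.20, 0.683 and 1.12 CPM. Spib, a transcription factor of the ETS family, was at 18.2, 17.6 and 16.0 CPM in members and at 3.11, 4.42 and 1.42 CPM in other cells. These genes were low in both groups, yet the members exceeded the other cells of each library by log2 ratios of at least 1.99.

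Of 20 genes of NF-kB signalling and cell survival, 8 in the untreated, 6 in the VD3 and 13 in the Ndrg2-KO library were at least 2-fold higher in members, next to 7.53%, 3.84% and 7.6% of all genes, and 1, 1 and 2 were lower, with median log2 ratios of 0.81, 0.60 and 1.36. Relb, the subunit of the alternative NF-kB pathway, was at 201, 201 and 207 CPM in members and at 66.6, 92.2 and 44.7 CPM in other cells. Its level in members was thus nearly the same in all 3 libraries. Rel was at 292, 328 and 223 CPM against 87.8, 150 and 62.5 CPM, and Nfkb2, whose product pairs with Relb, at 123, 106 and 111 CPM against 49.3, 56.2 and 30.4 CPM. Traf1, an adaptor of TNF receptors, was at 302, 240.5 and 366 CPM against 80.1, 96.9 and 54.9 CPM. Serpinb9 and Serpinb6b, inhibitors of granzymes and other serine proteases, were also higher, with 210, 139 and 178 CPM and 370, 217 and 210 CPM in members. Bcl2 went the other way in every library, at 6.73, 4.93 and 2.61 CPM in members and 25.1, 12.3 and 11.6 CPM in other cells.

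The promoters of Rel and Nfkb2, 300 bases from 250 before to 50 after the transcript start in RefSeq (GRCm38.p6), are shown because both genes were higher in the members and their products bind the NF-kB consensus. Capitals mark matches to that consensus on either strand, and overlapping matches share letters.
Rel, chr11:23770920-23771219, minus strand: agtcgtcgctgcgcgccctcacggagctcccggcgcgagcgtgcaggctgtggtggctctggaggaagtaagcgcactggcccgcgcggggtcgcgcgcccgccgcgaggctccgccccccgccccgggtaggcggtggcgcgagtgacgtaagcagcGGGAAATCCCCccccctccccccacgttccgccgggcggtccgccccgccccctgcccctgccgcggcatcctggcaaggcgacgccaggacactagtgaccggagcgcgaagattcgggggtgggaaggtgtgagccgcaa
Nfkb2, chr19:46304487-46304786, plus strand: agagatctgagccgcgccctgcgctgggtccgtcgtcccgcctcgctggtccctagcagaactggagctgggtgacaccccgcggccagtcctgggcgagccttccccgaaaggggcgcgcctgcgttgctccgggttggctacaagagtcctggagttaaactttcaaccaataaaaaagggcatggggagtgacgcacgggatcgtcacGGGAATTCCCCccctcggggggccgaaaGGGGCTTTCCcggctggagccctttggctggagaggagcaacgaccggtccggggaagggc
The consensus was found in 9 of 25 promoters of the NF-kB and survival list, those of Bcl2l1, Bcl3, Nfkb2, Nfkbia, Nfkbie, Rel and Tnfaip3, for 18 genes in the table, and in 2779 of 32851 promoters overall (8.46%). It was found in 0 of 8 promoters of the 6 mature DC markers in the table. RefSeq gives Nfkb2 3 starts, and the promoter shown is the one with the most matches, 3, while the others, at chr19:46305445-46305744 and chr19:46305680-46305979, hold 2 and 1. A match describes the letters in this window and is no measurement of binding.

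Of 11 genes of costimulation between DCs and T cells, 7 were at least 2-fold higher in members of the untreated and VD3 libraries. In the Ndrg2-KO library 9 were, while 1 was lower in the VD3 library. Cd80 was at 120, 160 and 60.3 CPM in members against 33.2, 61.4 and 15.1 CPM in other cells, and Cd86, the other ligand of Cd28, at 188, 133 and 234 CPM against 51.8, 63.6 and 67.1 CPM. Cd83 was at 388, 367 and 416 CPM against 81.6, 132 and 65.1 CPM. Among molecules with regulatory roles, Il4i1, an enzyme that breaks down amino acids and restrains T cells, was at 488, 924 and 570 CPM against 101, 346 and 99.9 CPM, and Cd200, an inhibitory ligand for myeloid cells, at 43.4, 51.4 and 61.1 CPM against 9.28, 20.9 and 18.1 CPM. Cd274, which encodes PD-L1, passed 2-fold in the untreated library and not in the others, with 189, 199 and 205 CPM in members and 91.9, 117 and 155 CPM in other cells. Its level in members was similar across libraries and that of the other cells was not.

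Of 16 genes for MHC class I, its peptide supply and the immunoproteasome, 10, 2 and 6 were at least 2-fold higher in members and 0 were lower. H2-K1 stood at 1647, 2430 and 2543 CPM in members and at 689, 1518 and 1302 CPM in other cells. The genes of this family are near-identical in places, so reads may be split between them. Of 11 MHC class II genes tested, 0, 0 and 2 were past 2-fold higher and 2, 1 and 3 lower, which is near the shares over all genes. The March1 transcript, whose ubiquitin ligase removes MHC class II from the surface, was among the lower genes in every library. Cd74, the invariant chain of MHC class II, was at 9634, 7042 and 6461 CPM in members and at 5591, 5262 and 4071 CPM in other cells. Per cell, Cd74 had a median of 93.5 UMIs per 10000 in untreated members (quartiles 63.3 and 128), 63.2 in VD3 members (43.3 and 89.2) and 34.8 in Ndrg2-KO members (13.6 and 79.8). The spread among Ndrg2-KO members was thus the widest relative to its median.

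Of 24 transcription factors tested, 7, 8 and 11 were at least 2-fold higher and 5 lower in the members of each library, and of 22 genes for cytoskeleton and migration 10, 8 and 9 were higher and 2, 2 and 1 lower. Batf3, Etv3, Nr4a3, Spib, Stat4 and Zbtb46 were past 2-fold higher in the members of all 3 libraries, whereas Batf, Cebpb and Maf were past 2-fold lower in all 3. Zbtb46, a factor found in classical DCs, was at 34.0, 42.9 and 26.5 CPM against 12.7, 17.7 and 7.07 CPM. Marcks and Marcksl1, which link actin to the membrane, were at 947, 914 and 1264 CPM and at 466, 312 and 629 CPM in members, against 312, 404 and 564 CPM and 136, 154 and 115 CPM in other cells. Ly75, an endocytic receptor kept by mature DCs, was the only one of the uptake genes past 2-fold higher in members of any library, with 49.9, 60.7 and 62.9 CPM against 16.3, 24.3 and 16.5 CPM.

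Many uptake receptors, inflammatory chemokines, glycolysis and redox genes were lower in the members, where 21.9%, 15.5% and 16.9% of all genes were lower. Of the genes for endocytosis and lectins, 15 of 16, 13 of 15 and 14 of 15 tested were at least 2-fold lower, with median log2 ratios of -2.13, -1.91 and -2.18. Clec4n, which encodes the fungal receptor Dectin-2, was at 387, 188 and 222 CPM in members and 1612, 601 and 1230 CPM in other cells. Of chemokines, 10 of 15, 10 of 14 and 9 of 14 were lower, among them Ccl2, Ccl3, Ccl4, Ccl6, Ccl7, Ccl9, Ccl24, Cxcl2 and Cxcl3 in all 3 libraries. Ccl22 and Cxcl16 were higher in all 3. Of 23 genes for glycolysis and hypoxia, 15, 15 and 11 were lower and only Ndrg1 was higher. Slc2a1, the glucose transporter Glut1, was at 16.3, 10.2 and 13.3 CPM in members and at 65.9, 38.6 and 42.7 CPM in other cells. Of 18 antioxidant genes, 13, 12 and 10 were lower, and Fth1, the ferritin heavy chain, was at 9960, 8740 and 16056 CPM against 25261, 17925 and 42120 CPM. In the same comparisons the median log2 ratio over all tested genes was -0.36, -0.20 and -0.17, and the members held fewer genes per cell than the other cells at 5000 UMIs, with medians of 1546.5 against 1832, 1571 against 1711 and 1658 against 1779.

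Markers of macrophages, monocytes, neutrophils and dividing cells were lower in the members than in other cells but were not absent. The summed level of 10 macrophage markers in members was 25.1%, 29.3% and 30.9% of that in other cells, with 0 of 10 genes at 0. The sum of 7 monocyte markers was 18.6%, 11.4% and 23.1% of that in other cells, and F13a1 was at 0 in Ndrg2-KO members. Neutrophil markers were at 10.1%, 8.97% and 46.0% with Retnlg at 0 in all 3, and 6 proliferation markers at 27.0%, 24.9% and 22.8%. Of 7 basophil and mast cell markers 5 were at 0 in Ndrg2-KO members, and lymphocyte markers summed to at most 2.59 CPM. At 5000 UMIs per cell, at least 3 macrophage markers were found in 8.21% of untreated, 9.59% of VD3 and 16.0% of Ndrg2-KO members, against 50.8%, 41.1% and 74.0% of other cells. The summed level of 7 cDC1 markers was at 174%, 165% and 143% of that in other cells, and Batf3, at 260, 240 and 178 CPM, made up most of it. Of 5 cDC1 markers tested Batf3 was higher in members and the other 4 were at least 2-fold lower in every library, among them Clec9a, Tlr3 and Wdfy4, with a median log2 ratio of -2.03, -1.80 and -1.82. At least 3 of these 7 were found in 2 of 1950, 2 of 1960 and 0 of 463 members, the last of which allows a share of up to 0.794%. Whether marker-bearing members are doublets, free RNA or cells in transition was not tested.

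**Figure D2:**
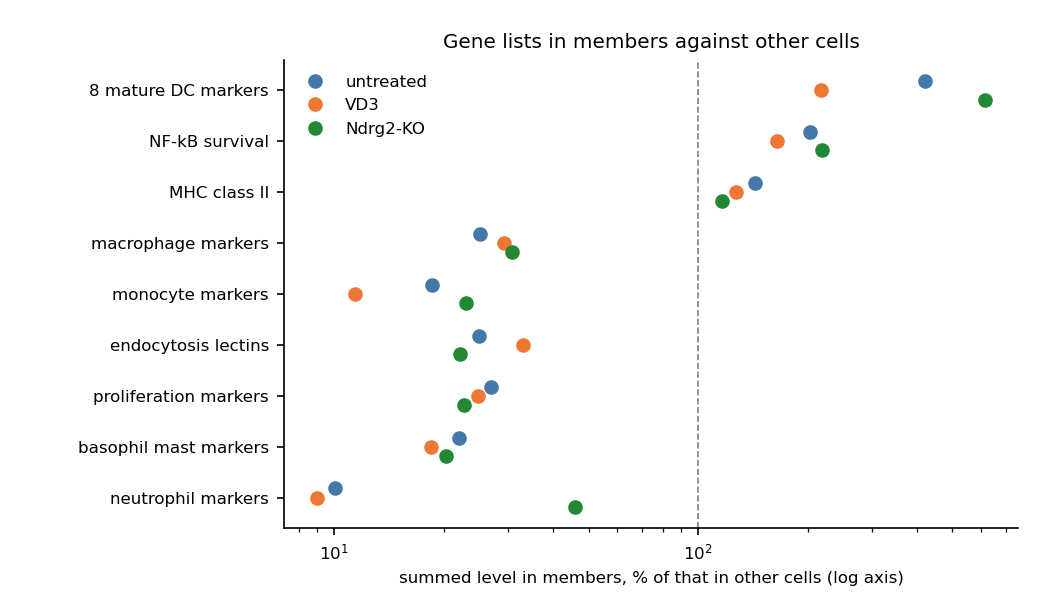
Summed level of 9 gene lists in members, as a percentage of the summed level in the other cells of the same library (log axis, 1 point per library, dashed line at equal levels). The 8 mature DC markers other than Ccr7 and Fscn1 lie at 419%, 218% and 615% in the untreated, VD3 and Ndrg2-KO libraries, and macrophage markers between 25.1% and 30.9%.

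To show which values rest on such cells, members were left out when they held UMIs of at least 3 of the 17 macrophage and monocyte markers at 5000 UMIs per cell, along with members below that depth, an alternative chosen after the data were seen. This took out 258 of 1963 untreated (13.1%), 249 of 1972 VD3 (12.6%) and 147 of 474 Ndrg2-KO members (31.0%). Mmp12, a macrophage elastase that is not among the 17 markers, then stood at 68.8, 13.7 and 219 CPM, which is 13.4%, 48.9% and 20.1% of its level in all members. Arg1 in the Ndrg2-KO library, also not a marker of the 17, was left at 8.98% of its level. By contrast, Ccl22 had log2 ratios to untreated members of -0.96 for VD3 and -0.42 for Ndrg2-KO in all members, and -1.06 and -0.44 without these cells. Over all named ratios to untreated members that were past 2-fold and could still be computed, 31 of 147 were no longer past it without these cells. Values without them are given below for a part of the genes.

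Some genes varied widely among members. Ccl17, which like Ccl22 binds Ccr4, was at 2133, 1034 and 1538 CPM, and the tenth of the members with most Ccl17 held 50.0%, 63.2% and 62.1% of its UMIs. For Ccl22 the same share was 27.0%, 34.5% and 31.3%, and for Ccr7 21.8%, 21.0% and 22.98%. Among genes with at least 0.5 UMIs per member, the variance over the mean, taken in the library where it was smallest, was highest for S100a8 at 119, S100a9 at 88.6 and Ccl5 at 40.3, where the median of such genes was 1.11. S100a8 and S100a9 are neutrophil genes, and their means were at most 1.49 UMIs per member. Aldh1a2, the enzyme that makes retinoic acid from retinal, was found in 32.1%, 12.1% and 41.0% of members at 5000 UMIs per cell. Its UMIs were concentrated, with 55.1%, 72.3% and 70.4% of them in the tenth of members with most.

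Members were then compared with mature DCs that held Il12b. In the untreated library 74 of 9954 genes (0.743%) were at least 2-fold higher in members and 45 (0.452%) lower, in the VD3 library 37 of 9777 (0.378%) and 26 (0.266%), and in the Ndrg2-KO library 20 of 6771 (0.295%) and 11 (0.162%), where the lower genes include Il12b, which the rule set to 0 in members. With Il12b left out, 6727 genes were tested in all 3 libraries, of which 3 were at least 2-fold higher in members than in mature DCs with Il12b in every library, and 0 were at least 2-fold lower. Aldh1a2 was at 134, 37.9 and 269 CPM in members and at 42.2, 14.4 and 90.5 CPM in the cells with Il12b, log2 ratios of 1.67 (1.5 to 1.84), 1.39 (1.09 to 1.71) and 1.57 (1.38 to 1.77). Calcb was at 13.4, 6.40 and 20.1 CPM against 3.73, 1.67 and 2.26 CPM, where the last value rests on 6 UMIs. Aqp9, a channel for water, glycerol and urea, was at 18.5, 7.26 and 29.2 CPM against 8.97, 2.59 and 11.3 CPM. Aldh1a2 and Calcb were also higher in members than in the other cells at large, while Aqp9 was at 11.8, 6.13 and 31.9 CPM there and thus slightly lower in members of the Ndrg2-KO library. The cells with Il12b made up 19.0% of untreated, 16.1% of VD3 and 29.9% of Ndrg2-KO mature DCs, and since a single UMI decided the matter, cells that express Il12b without a captured UMI stand among the members. With only genes of at least 1000 UMIs the count was 1, and with members chosen after drawing to 5000 UMIs it was 10.

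VD3 members were compared with untreated members to ask how mature DCs differ after calcitriol. Of 10653 genes tested, 280 were at least 2-fold higher (2.63%) and 470 at least 2-fold lower (4.41%). The median log2 ratio over all of them was near 0. Most of these differences were not particular to the members. Of 278 higher genes that could also be tested in the other cells, 189 were at least 2-fold higher there too. Of 455 lower ones, 285 were at least 2-fold lower there too. Of the 8 mature DC markers outside the rule, 0 passed 2-fold in either direction, with a median of -0.16. Il4i1 was furthest above, with a log2 ratio of 0.92 (0.90 to 0.95), and Ccl22 furthest below, at -0.96 (-0.98 to -0.95). In the other cells these ratios were 1.78 and -0.18. Ccl5 and Tbc1d4 were at -0.77 and -0.73 in members.

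Of 8 genes listed for vitamin D metabolism and response that could be tested, Cyp24a1 was higher and Camp, which is also one of the neutrophil markers, was lower. Cyp24a1 (ENSMUSG00000038567, chr2:170482708-170497145, minus strand), the enzyme that degrades calcitriol and a standard target of its receptor, was at 0 UMIs in untreated and Ndrg2-KO members and at 132 CPM in VD3 members. Against a floor of 3 UMIs its log2 ratio was at least 10.70. Cyp24a1 UMIs were found in 16.5% of VD3 members and in 45.2% of the other VD3 cells at 5000 UMIs per cell, and 86.0% of the member UMIs lay in the tenth with most. Without the members carrying macrophage and monocyte markers Cyp24a1 was at 50.05 CPM, 37.8% of its level in all members. Vdr, the receptor itself, was at 92.0, 147 and 103 CPM in the members of the 3 libraries, a log2 ratio of 0.67 (0.61 to 0.73) for VD3.

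Kit, the receptor of stem cell factor, was among the 10 genes most above untreated members. Its levels were 1.91, 34.8 and 5.52 CPM in untreated, VD3 and Ndrg2-KO members, a log2 ratio of 4.19 (3.85 to 4.55) for VD3. Without the marker-bearing cells the ratio was 3.88, and 15.3% of VD3 members held Kit at 5000 UMIs per cell compared with 0.872% of untreated ones. The difference was also present in the other cells, at 28.8 CPM against 1.89 CPM. Nptx2, a secreted pentraxin, was at 0.265, 6.49 and 0.307 CPM, with a log2 ratio of 4.61 that was 4.64 without the marker-bearing cells. In the other cells of the VD3 library Nptx2 was at 1.37 CPM, lower than in the members. Of 23 transcription factors 1 was past 2-fold, which is not far from the 2.63% of all genes higher with VD3. It was Irf8, a factor of the DC and monocyte lineages, at 201, 473 and 454 CPM. Its log2 ratio was 1.24 (1.20 to 1.27) for VD3 and 1.22 without the marker-bearing cells.

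Growth factors and matrix genes split in both directions in VD3 members. Of 18 genes 4 were past 2-fold higher and 5 lower, next to 2.63% and 4.41% of all genes. Hbegf, a ligand of the EGF receptor, was at 1.40 CPM in untreated against 33.9 CPM in VD3 members, a log2 ratio of 4.59 (4.20 to 5.02). Pdgfa was at 15.3 and 70.4 CPM, with a log2 ratio of 2.20 that was 1.42 without the marker-bearing cells. Pdgfb was at 15.9 and 58.5 CPM and Vegfa, the main angiogenic factor, at 2.54 and 11.4 CPM. The log2 ratios of Pdgfb and Vegfa were 1.88 and 2.16 in all members, and 1.87 and 2.29 without the marker-bearing cells. Mmp12, Fn1, Igf1, Pgf and Plaur were the lower genes, of which Plaur had a log2 ratio of -2.12 that came to -0.97 without the marker-bearing cells. Igf1 had one of -1.51, which was -0.39 without the highest doublet scores, -0.60 as a mean of per-cell CPM and -0.75 after drawing. Mmp12 was at 513 CPM in untreated against 28.0 CPM in VD3 members, a log2 ratio of -4.20 that came to -2.33 without the marker-bearing cells. Gdf15 and Ms4a7, higher by 5.32 and 4.01 on the log2 scale, likewise moved to 4.28 and 1.74 without them.

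Uptake receptors and monocyte genes were often lower with VD3, and part of these differences was smaller without the marker-bearing cells. Of 13 endocytosis and lectin genes, 8 were at least 2-fold lower, next to 4.41% of all genes, and the median was -1.16. They were Clec10a, Clec4a2, Clec4n, Fcgr1, Itgam, Mgl2, Mrc1 and Msr1. Mgl2, a lectin for galactose-type sugars, was at 150 CPM in untreated against 12.1 CPM in VD3 members, a log2 ratio of -3.64 (-3.78 to -3.49). For Mgl2 the ratio was -3.06 without the marker-bearing cells, but those of Clec4a2, Itgam, Clec4n and Msr1 came to -0.66, -0.59, -0.29 and -0.55, from -2.28, -2.19, -1.04 and -1.16 in all members. In members of 10000 to 30000 UMIs Clec4a2, Itgam and Fcgr1 were at -0.97, -0.85 and -0.31, so that these calls rested on which members were compared. Of 5 monocyte markers, Ccr2, Fn1, Ly6c2 and Vcan were lower, while without the marker-bearing cells Ly6c2 and Vcan were at -0.24 and -0.88 instead of -1.65 and -1.05. Both are among the 17 markers that decided which cells were left out, so a smaller difference was built into that step. Ccr2, the receptor that brings monocytes out of the bone marrow, was at 97.9 CPM in untreated against 0.167 CPM (6 UMIs) in VD3 members. Without the marker-bearing cells 6.17% of the Ccr2 level in untreated members was left. Ccr2 is itself one of the 17 markers, so a fall was built into that step.

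Of 11 costimulatory genes 3 were lower, namely Cd40, Cd48 and Slamf1, next to 4.41% of all genes lower with VD3. Cd40, through which T cells activate DCs, was at 30.0 CPM in untreated against 9.07 CPM in VD3 members, a log2 ratio of -1.72 (-1.91 to -1.54), and its UMIs were found in 15.2% and 4.49% of members at 5000 UMIs per cell. Slamf1 was at 21.4 and 5.51 CPM and Cd48, a ligand of Cd244, at 187 and 70.5 CPM. Cd80 and Cd86 stayed within 2-fold, with log2 ratios of 0.41 and -0.50 in opposite directions. Of 15 regulatory genes, Havcr2, which encodes Tim-3, was higher, next to 2.63% of all genes. Aldh1a2 and Pdcd1lg2, which encodes PD-L2, were lower, next to 4.41%. Aldh1a2 had a log2 ratio of -1.83 (-1.91 to -1.74) and Pdcd1lg2 one of -1.42 (-1.53 to -1.30).

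Next to 2.63% of all genes higher and 4.41% lower with VD3, 1 of 12 chemokines was at least 2-fold higher and 3 were lower, and counts of a single gene in the cytoskeletal and MHC lists below are not far from these shares. Ccl17 was at 2133 CPM in untreated against 1034 CPM in VD3 members, a log2 ratio of -1.05 (-1.06 to -1.03) that was -0.90 in members of 10000 to 30000 UMIs, and Cxcl2 and Cxcl3 were lower as well. In members of 10000 to 30000 UMIs, Cxcl2 was higher instead, at 0.55, and with under 5% mitochondrial UMIs Cxcl3 was higher at 0.19. Without the marker-bearing cells Cxcl2 and Cxcl3 were at -0.16 and -0.42 instead of -1.73 and -1.32. Ccl4 was higher at 1.88 (1.75 to 2.0), and at 4.64 without those cells, which left it at 0.534 CPM (15 UMIs) in untreated against 13.3 CPM (371 UMIs) in VD3 members. Of 22 genes for cytoskeleton and migration, Adam8, Anxa3, Cd44 and Ezr were lower, and Itgb7 was higher at 1.33, which was 0.86 without the marker-bearing cells. Cd44, a receptor for hyaluronan, was at 138 and 51.3 CPM and Anxa3, an annexin, at 636 and 217 CPM. Of 16 MHC class I genes 1 was higher and 1 lower, where H2-Q7 was at 197 and 539 CPM and H2-M2 at 193 and 30.8 CPM, log2 ratios of 1.45 and -2.65 in opposite directions. Of 11 MHC class II genes, Ciita, the master regulator of the class, was the single gene past 2-fold, at 36.3 CPM in untreated against 18.1 CPM in VD3 members. Its log2 ratio of -1.01 barely passed, and it was -0.73 under 5% mitochondrial UMIs, -0.83 after drawing, -0.88 at 10000 to 30000 UMIs and -0.88 without the marker-bearing cells.

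Lad1 and Serpinb1a were lower with VD3 and did not rest on marker-bearing cells. Lad1, which encodes ladinin, was at 7.60 CPM in untreated against 0.195 CPM in VD3 members, and Serpinb1a, an inhibitor of neutrophil elastase, at 52.0 and 1.61 CPM. Their log2 ratios were -5.29 and -5.01, and -5.65 and -5.06 without those cells. The study named 22 genes on these samples, which is no independent evidence of their direction. Of 21 tested, Kit and Vegfa were higher and Flt3, Fn1, Mmp12, Ndrg2, S100a4 and S100a6 lower in VD3 members, where S100a6, at -1.02, was between -0.86 and -0.99 under 8 of the alternatives. S100a4, a calcium-binding protein, was at 1906 and 489 CPM.

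**Figure D3:**
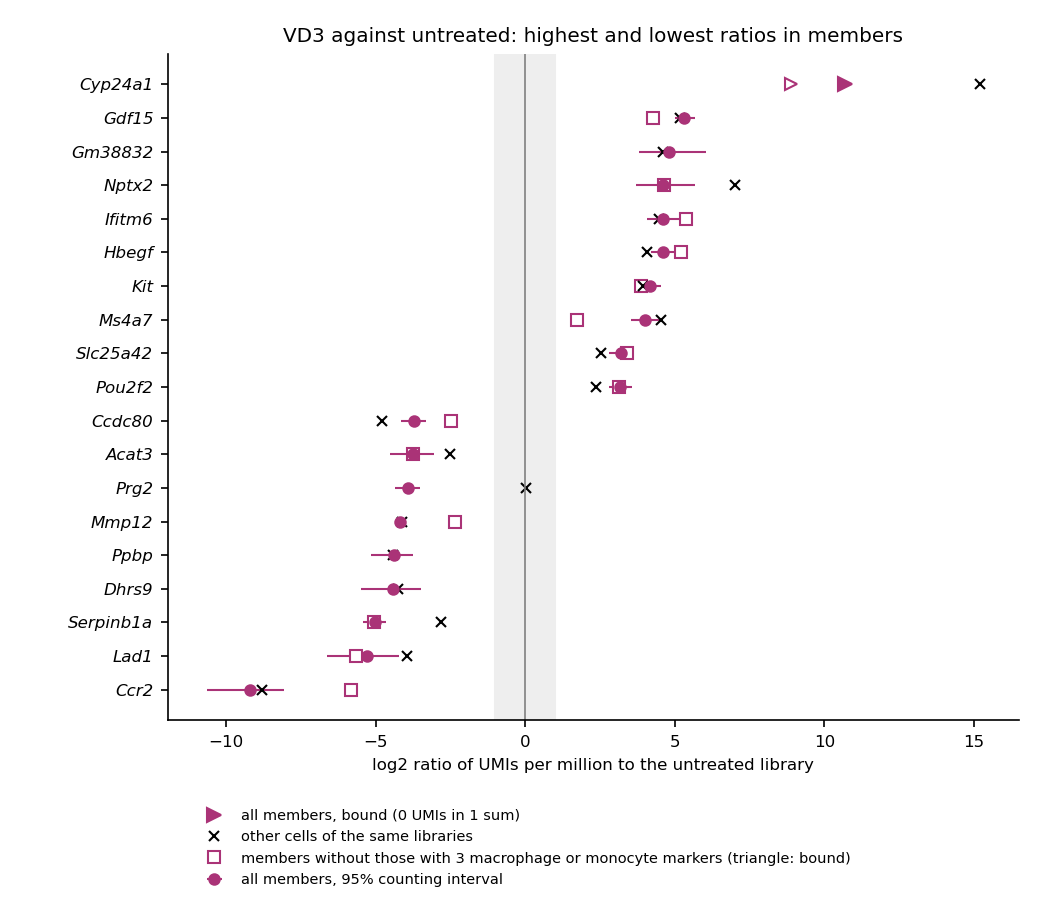
Log2 ratios of VD3 to untreated CPM for genes with the highest and lowest ratios in members (filled circles with 95% counting intervals, triangle for a bound against 0 UMIs), in members without those carrying macrophage or monocyte markers (open symbols, shown where at least 100 UMIs were left) and in the other cells (crosses). The grey band marks 2-fold. Kit, Nptx2, Lad1 and Serpinb1a have open squares close to their circles, whereas Ccr2, Mmp12, Ms4a7 and Gdf15 have open squares nearer to 0. Ccr2 is itself one of the markers that decided which cells were left out.

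In the Ndrg2-KO library the targeted gene was checked first. Ndrg2 (ENSMUSG00000004558, chr14:51905271-51914158, minus strand) was at 6.22 CPM (235 UMIs) in untreated, 2.12 CPM (76 UMIs) in VD3 and 3.38 CPM (22 UMIs) in Ndrg2-KO members, and at 3.99, 1.11 and 0.766 CPM in the other cells. The log2 ratio of Ndrg2-KO to untreated members was -0.88 (-1.58 to -0.25). Small insertions and deletions need not lower a count of 3′ ends, so that the UMIs do not show whether a cell was edited.

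Relative to untreated members, 420 of 9983 genes were at least 2-fold higher in Ndrg2-KO members (4.21%) and 361 at least 2-fold lower (3.62%), with a median log2 ratio of 0.06. This comparison shares its untreated members with that of VD3. Most of these differences, too, were not particular to the members. In the other cells 265 of the 420 higher genes were at least 2-fold higher as well. Of 350 lower genes that could be tested there, 248 were at least 2-fold lower. Of the 8 mature DC markers outside the rule, 1 passed 2-fold and the median was 0.17. It was Ccl5 (ENSMUSG00000035042, chr11:83525778-83530518, minus strand), with 6761 CPM in untreated, 3952 CPM in VD3 and 21105 CPM in Ndrg2-KO members. Its log2 ratio was 1.64 (1.63 to 1.65), and 1.71 without the marker-bearing cells. Every one of 474 Ndrg2-KO members held Ccl5, and the tenth with most had 25.1% of its UMIs compared with 36.6% among untreated members. Ccr7 and Ccl22 stayed within 2-fold, at 0.14 (0.10 to 0.17) and -0.42 (-0.45 to -0.40).

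Growth factors and matrix genes were the list most often higher in Ndrg2-KO members, with 9 of 17 past 2-fold next to 4.21% of all genes. The list median was 1.09 against 0.06 over all genes. The 9 genes were Fn1, Igf1, Mmp9, Mmp12, Pdgfb, Spp1, Thbs1, Vegfa and Vegfc, while Adm and Pgf were lower. Vegfa (ENSMUSG00000023951, chr17:46016993-46032369, minus strand) was at 2.54 CPM in untreated, 11.4 CPM in VD3 and 56.5 CPM in Ndrg2-KO members, a log2 ratio of 4.47 (4.15 to 4.81). Vegfa UMIs were found in 1.08%, 4.74% and 21.4% of members at 5000 UMIs per cell, and in 1.83%, 7.16% and 30.9% of the other cells. Without the marker-bearing cells the ratio of Vegfa was 4.26. Pdgfb was at 15.9, 58.5 and 64.1 CPM, with ratios of 2.02 in all members and 2.04 without those cells. Thbs1 and Spp1, a thrombospondin and osteopontin, were at 32.9 and 199 CPM in untreated and 163 and 851 CPM in Ndrg2-KO members. Their ratios of 2.31 and 2.10 were 3.88 and 2.82 without the marker-bearing cells, which left 3.77 and 25.9 CPM in untreated and 55.6 and 183 CPM in Ndrg2-KO members. Mmp12 and Fn1, the latter one of the 17 markers, had ratios of 1.09 and 2.24, and 1.67 and 2.91 without them. Without the highest doublet scores Mmp12 was at 0.63 and thus within 2-fold.

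Among the 10 genes most above untreated members, Arg1 and Apoe were carried by few cells. Arg1, which breaks down arginine, was at 1.91 CPM in untreated against 155 CPM in Ndrg2-KO members, and at 6.27 and 788 CPM in the other cells. The tenth of Ndrg2-KO members with most held 94.5% of its UMIs. Apoe, a lipid carrier and one of the 17 markers, was at 6.75 and 196 CPM, a log2 ratio of 4.86 that was 1.73 without the marker-bearing cells. Gdpd3, a lysophospholipase, Htra1, a secreted protease, Sdc1, the heparan sulfate proteoglycan syndecan 1, and Klrd1, a lectin known from NK cells, kept their ratios. Gdpd3 was at 4.34 and 150 CPM, a log2 ratio of 5.11 (4.87 to 5.36), and 5.38 without those cells. Sdc1 was at 8.98 and 189 CPM, with ratios of 4.40 and 4.22. Htra1 was at 2.01 and 44.2 CPM and Klrd1 (117 and 224 UMIs) at 3.1 and 34.4 CPM, with ratios of 4.46 and 3.47, and 4.42 and 3.71 without those cells. Htra1 and Klrd1 were at least 2-fold higher in members than in other cells of the Ndrg2-KO library, with levels of 15.1 and 11.5 CPM in the latter.

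Immediate early genes were lower in Ndrg2-KO members for 5 of 16, next to 3.62% of all genes. They were Egr1, Fos, Fosb, Ier2 and Ier3, and the list median was -0.16. Egr1 was at 32.1 CPM in untreated against 6.75 CPM in Ndrg2-KO members and Fos, an AP-1 subunit, at 17.6 and 4.76 CPM. The same genes were lower in the other cells, with Egr1 at 104 and 24.9 CPM. In members of 10000 to 30000 UMIs, however, Egr1, Fos and Ier2 had log2 ratios of -0.62, -0.48 and -0.32 instead of -2.25, -1.89 and -1.33. With under 5% mitochondrial UMIs Fos was at -0.93 and Ier2 at -0.029, and Ier3 went from -1.02 to -0.50 without the marker-bearing cells. Id3, an inhibitor of helix-loop-helix transcription factors, was at 101 CPM in untreated, 26.2 CPM in VD3 and 2.61 CPM in Ndrg2-KO members, a log2 ratio of -5.28 (-6.06 to -4.60) that was -4.66 without the marker-bearing cells. Lad1 was at 0.153 CPM, a single UMI, in Ndrg2-KO members, with a ratio of -5.63 (-10.94 to -3.14). The cystatin genes Stfa1 and Stfa2l1, which belong to a family of near-identical genes and are thus uncertain, were also down to 1 UMI each.

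Proliferation, neutrophil and basophil markers were lower in Ndrg2-KO members, and also in the other cells of that library. In the other cells 4 of 6 proliferation, 6 of 8 neutrophil and 6 of 7 basophil and mast cell markers were at least 2-fold lower. There 1 neutrophil marker was higher. In members 5 of 6 proliferation markers were lower past 2-fold, next to 3.62% of all genes, with Mki67 at 38.1 CPM in untreated against 10.3 CPM in Ndrg2-KO members. Of 6 neutrophil markers 4 were, with S100a8 at 397 and 192 CPM. In members of 10000 to 30000 UMIs the direction was the opposite for Mki67, Top2a, Pclaf, Birc5, S100a8 and S100a9, with log2 ratios of 0.29 to 1.31. With at least 1 Fscn1 UMI required, Ngp and Camp turned from -5.23 and -2.88 to 2.50 and 1.97. Without the marker-bearing cells Pclaf and Top2a turned to 0.14 and 0.61. These calls thus depended on which members were compared. Mcpt8 and Prss34, basophil proteases, were at 0 UMIs in Ndrg2-KO members. Inflammatory chemokines showed a similar dependence. Ccl2 and Cxcl3 were lower at -2.49 and -1.04, but higher at 0.11 each in members of 10000 to 30000 UMIs. Cxcl2 was at 33.4 CPM in untreated against 1.23 CPM (8 UMIs) in Ndrg2-KO members. Tnf was at 10.4, 13.5 and 0.614 CPM in the members of the 3 libraries. Its level in Ndrg2-KO members, the lowest, rests on few of their 6516947 UMIs.

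Of 10 interferon-response genes, Ifi204, Isg15, Mx1 and Rsad2 were at least 2-fold higher in Ndrg2-KO members, next to 4.21% of all genes, and 0 were lower. Mx1, an antiviral GTPase, was at 104 CPM in untreated, 43.3 CPM in VD3 and 306 CPM in Ndrg2-KO members, log2 ratios of -1.27 for VD3 and 1.55 for Ndrg2-KO. With VD3 this list went both ways, since Rsad2 and Gbp2 were higher at 2.18 and 1.42 and Isg15 was lower at -1.66. Under 5% mitochondrial UMIs the ratio of Mx1 for Ndrg2-KO was 0.94, and that of Isg15 went from 1.12 to 0.69 at 10000 to 30000 UMIs. Of 16 lysosomal genes Ctsd, Ctsl, Lgmn and Npc2 were higher and 12 were within 2-fold, and Npc2, at 1.03, was at 0.85 in members of 10000 to 30000 UMIs. Ctsl, a protease that processes antigen, was at 57.9 and 394 CPM, a log2 ratio of 2.77 (2.68 to 2.85) that was 2.59 without the marker-bearing cells, whereas Ctsd went from 1.21 to 0.10. Cxcr4, the receptor of Cxcl12, was at 26.5, 41.3 and 118 CPM, a ratio of 2.15 (2.01 to 2.29). Irf8 had a ratio of 1.17 (1.11 to 1.24), which was 0.60 under 5% mitochondrial UMIs and 0.95 with at least 1 Fscn1 UMI required, and 81.2% of Ndrg2-KO members held it at 5000 UMIs per cell compared with 52.9% of untreated ones. Of the costimulatory genes Tnfsf4, the ligand OX40L, was higher at 18.8 and 43.9 CPM, and so was Tnfsf9. The log2 ratio of Tnfsf4 was 1.22, and 0.98 under 5% mitochondrial UMIs. Cd80 was at 120 and 60.3 CPM, a log2 ratio of -1.0 just inside 2-fold. In MHC class II 0 of 11 genes passed 2-fold, yet the median was -0.58, with H2-Eb1 at 1503 and 819 CPM. Aldh1a2 was at 134 and 269 CPM, a log2 ratio of 1.0 (0.92 to 1.08), but with under 5% mitochondrial UMIs, which left 60 Ndrg2-KO members, it was -0.33, and without the marker-bearing cells it was 0.50.

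**Figure D4:**
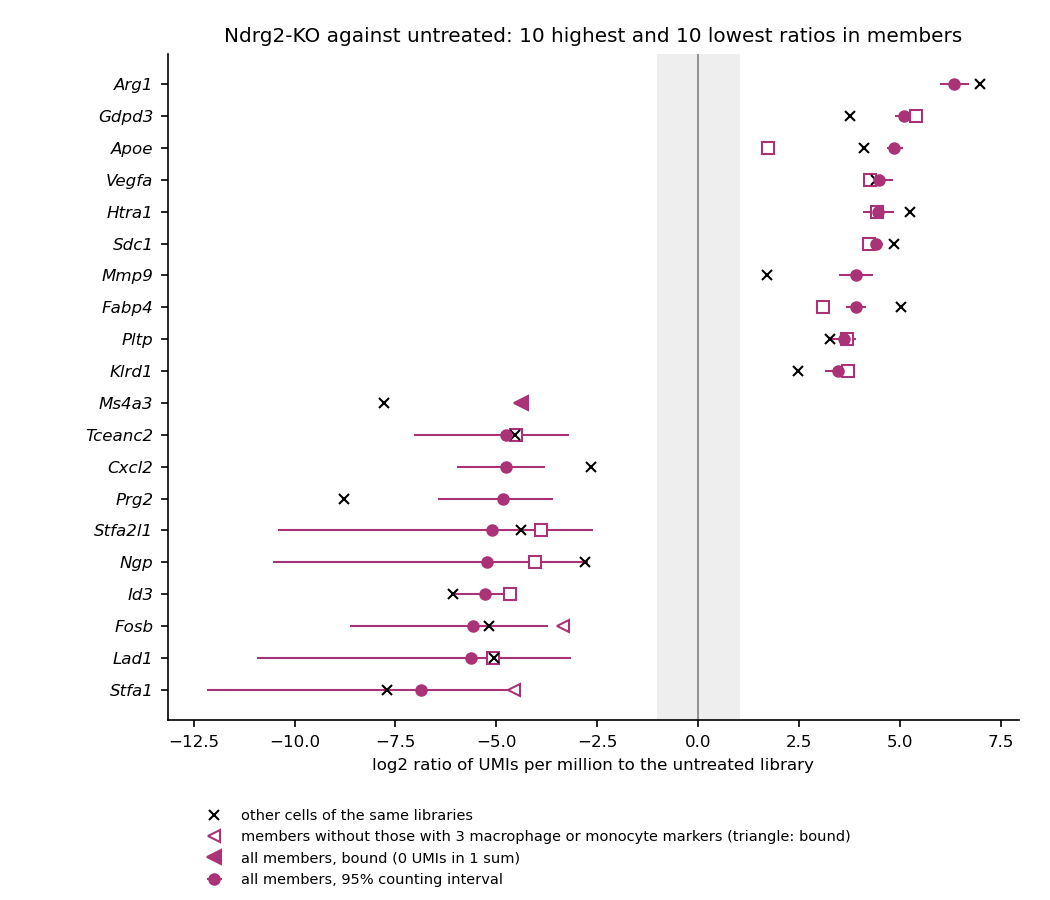
Log2 ratios of Ndrg2-KO to untreated CPM for the 10 genes with the highest and the 10 with the lowest ratio in members (filled circles with 95% counting intervals, triangle for a bound against 0 UMIs), in members without those carrying macrophage or monocyte markers (open symbols, shown where at least 100 UMIs were left) and in the other cells (crosses). The grey band marks 2-fold. Vegfa, Htra1, Sdc1 and Gdpd3 have open squares at 4.26, 4.42, 4.22 and 5.38, close to their circles at 4.47, 4.46, 4.40 and 5.11, while that of Apoe lies at 1.73 instead of 4.86.

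Of the genes named by the study, 20 could be tested here, of which Flt3, Fn1, Kit, Mgst1, Mmp12, Tcirg1 and Vegfa were higher and S100a9 was lower in Ndrg2-KO members. Flt3, the receptor of a DC growth factor, was at 3.50 CPM in untreated against 7.67 CPM in Ndrg2-KO members, but at 2.37 and 0.467 CPM in the other cells. Its log2 ratio of 1.13 in members was 0.39 with at least 1 Fscn1 UMI required and 0.77 after drawing. Side by side, the members of the VD3 and Ndrg2-KO libraries stood on opposite sides of the untreated members in several genes. Ccl5 was at -0.77 with VD3 and 1.64 with Ndrg2-KO, Aldh1a2 at -1.83 and 1.0, Mx1 at -1.27 and 1.55 and Cd44 at -1.43 and 1.02 on the log2 scale. Under 5% mitochondrial UMIs Aldh1a2 stood below the untreated members in the Ndrg2-KO library too, at -0.33. Cd44 barely passed 2-fold in that library. It was at 0.94 with any number of Il12b UMIs and at 0.97 with at least 3 Ccr7 UMIs. Under median-ratio scaling it was at 0.95, and with totals without mitochondrial and ribosomal protein genes at 0.96. Fabp4, a fatty acid-binding protein, was at 4.79, 0.752 and 72.1 CPM, ratios of -2.67 and 3.91. Other genes lay on the same side in both, among them Rsad2, an interferon-response gene like Mx1, above the untreated members. Vegfa, Pdgfb and Irf8 were above the untreated members in both libraries, and Id3, Lad1, Serpinb1a and Mgl2 were below in both, but Mgl2 in the Ndrg2-KO library went from -2.14 to -0.46 in members of 10000 to 30000 UMIs. Both comparisons use the same untreated members, whose level enters each ratio.

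**Figure D5:**
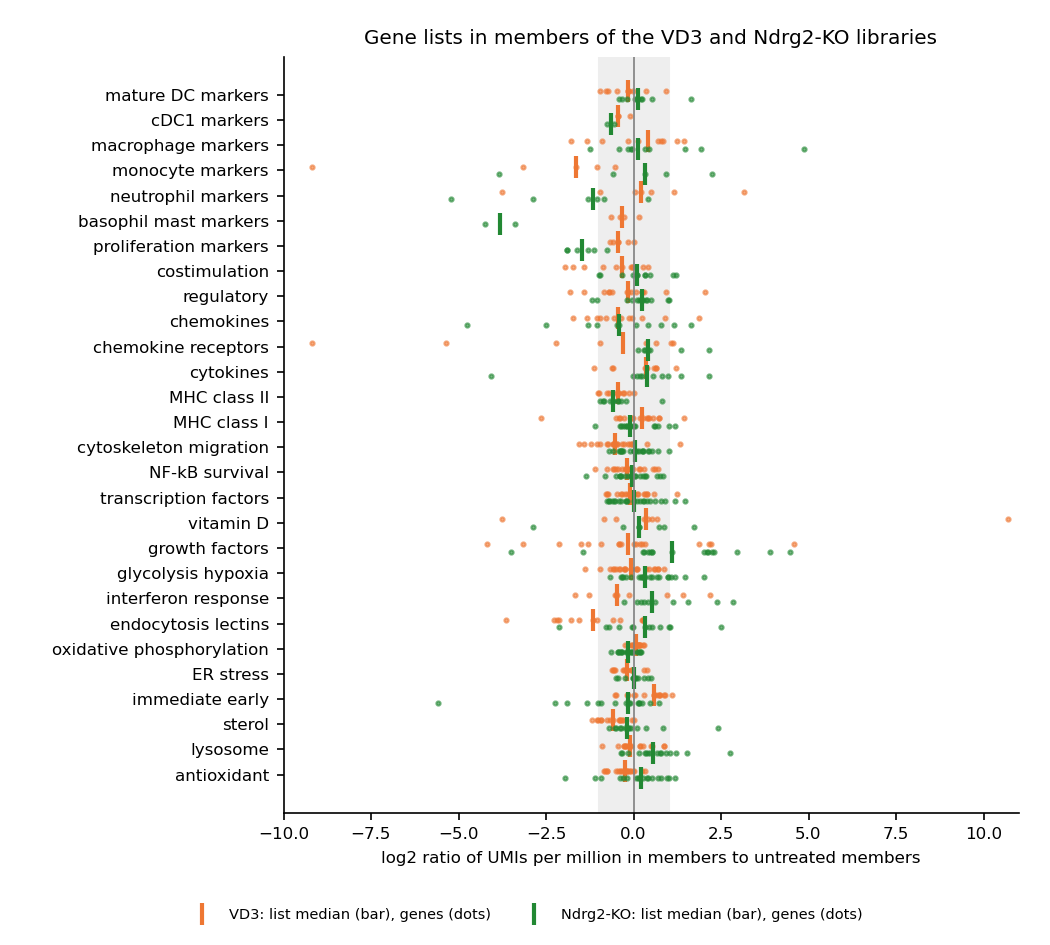
Log2 ratios to untreated members for the genes of 28 lists (dots, 1 gene each) with the median of each list (bars), for VD3 (orange) and Ndrg2-KO members (green). The grey band marks 2-fold. The growth factor list has medians of -0.17 with VD3 and 1.09 with Ndrg2-KO, and the endocytosis list -1.16 and 0.33.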

How the data were processed

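The authors prepared droplet 3′ libraries and deposited UMI counts per gene and barcode, made with Cell Ranger 3.1.0 per the file headers. The labels list mm9 and the study's methods mm10. Gene coordinates here come from GRCm38, matched by gene identifier, and promoters from RefSeq. Members and gene lists were chosen with earlier results of these data known. UMIs were summed per gene over the members, and over the other cells, of each library and scaled to 1000000. Genes needed at least 100 UMIs over both sums. A gene was called past 2-fold, and 0 counts were set to 3 UMIs in a ratio, which is then a bound. Intervals are exact Poisson, Clopper-Pearson or conditional binomial 95% intervals. With 1 library per condition there is no test. Doublets were kept, with Scrublet (scanpy 1.11.5) as an alternative.

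Named genes were the markers, Il12b, Ndrg2, up to 4 genes of each list and the 10 highest and 10 lowest ratios per comparison with at least 200 UMIs, the 15 highest and 10 lowest against other cells, and the genes the study names. Other genes given, such as Relb, Cd86, Cd74, Pdgfb and Spp1, were chosen after their values were seen. Some genes that these rules name are not reported here. Python 3.11.15, NumPy 2.4.6, pandas 2.3.3, SciPy 1.17.1 and matplotlib 3.10.9 were used. The ratios and intervals were tested on simulated data.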

Additional observations from a re-analysis of the deposited data

Results flagged for a closer look

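Flt3, the receptor of the DC growth factor Flt3 ligand, moved in opposite directions in members and in the other cells of the Ndrg2-KO library, and is given for that reason. Against the untreated library its log2 ratio was 1.13 in members (0.63 to 1.61) and -2.35 in the other cells. The ratio in members was no longer past 2-fold with at least 1 Fscn1 UMI required, at 0.39, with any number of Il12b UMIs, at 0.78, or when members were chosen after drawing to 5000 UMIs, at 0.77. The difference between the ratios was not tested, since each condition has 1 library.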

How the results depend on the processing

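No paired analysis was possible because each condition has 1 library, and for the same reason no library could be left out. The alternative without members carrying macrophage or monocyte markers was chosen after seeing the data. Depth limits most the Ndrg2-KO members, which are 474 cells with 6516947 UMIs. The share of members in untreated, VD3 and Ndrg2-KO cells was 21.3%, 12.1% and 3.49% under 5% mitochondrial UMIs, 23.7%, 20.7% and 4.25% with at least 10 Ccr7 UMIs, and 30.7%, 30.2% and 11.3% with at least 1 Fscn1 UMI. It was 33.4%, 26.6% and 8.48% with any number of Il12b UMIs, 32.1%, 32.8% and 9.47% of the cells with at least 5000 UMIs when chosen after drawing (26.8%, 23.6% and 8.85% of all kept cells), 35.6%, 33.0% and 4.64% in cells of 10000 to 30000 UMIs, and 23.5%, 19.5% and 4.10% without marker-bearing members. Without the highest Scrublet scores it was 25.4% and 20.6% in the untreated and VD3 libraries.

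The 280 genes higher in VD3 members were 145 under 5% mitochondrial UMIs, 614 with a minimum of 10 UMIs and 103 with a minimum of 1000 UMIs. The 470 lower ones were 298 at 10000 to 30000 UMIs, 1101 and 147 with those minimums, and 294 without marker-bearing members. The 420 genes higher in Ndrg2-KO members were 642 at 10000 to 30000 UMIs and 1072 and 111 with the minimums, and the 361 lower ones were 190, 779 and 71. The 279 genes higher in members than in other cells were 441 under median-ratio scaling and 456 and 153 with the minimums, and the 992 lower ones were 536 with a minimum of 1000 UMIs and 1505 without marker-bearing members. The 3 genes of the Il12b comparison were 1 under 5% mitochondrial UMIs, 5 with at least 1 Fscn1 UMI, 10 after drawing, and 15 and 1 with the minimums. With any number of Il12b UMIs that comparison has no value.

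Of the named ratios past 2-fold, 27 of 126 that could be computed were no longer past it under 5% mitochondrial UMIs, 34 of 151 at 10000 to 30000 UMIs, 31 of 147 without marker-bearing members, 21 of 171 after drawing, 18 of 178 as means of per-cell CPM, 17 of 161 without the highest Scrublet scores and 16 of 178 with at least 1 Fscn1 UMI. Some of these turned direction, and the cause was not tested. Under 5% mitochondrial UMIs the log2 ratios for Ndrg2-KO were 2.03 for C1qa, 0.46 for S100a8, 0.073 for Lilrb4a and -0.33 for Aldh1a2, and that of Cxcl3 for VD3 was 0.19. With at least 1 Fscn1 UMI they were 2.50 for Ngp and 1.97 for Camp, and after drawing 0.20 for Ccl4, all for Ndrg2-KO. At 10000 to 30000 UMIs they were 1.22 for C1qa, 0.70 for S100a8, 1.31 for S100a9, 0.50 for Pclaf, 0.49 for Top2a, 0.29 for Mki67, 0.48 for Birc5, 0.11 for Cxcl3 and 0.11 for Ccl2 for Ndrg2-KO, and 0.55 for Cxcl2 for VD3. Without marker-bearing members they were 0.14 for Pclaf, 0.61 for Top2a and 0.061 for Cxcl3 for Ndrg2-KO, and 0.38 for Ms4a3 for VD3.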

Other observations

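Of 20 respiratory chain genes 0 passed 2-fold in either comparison, with medians of 0.07 for VD3 and -0.16 for Ndrg2-KO, and of 14 ER stress genes 0 did. Of 15 sterol genes, whose median was -0.58 for VD3, Apol7c, Hmgcs1 and Idi1 were lower in VD3 members, with Idi1, an enzyme of isoprenoid synthesis, at 155 CPM in untreated against 77.1 CPM in VD3 members. These calls barely passed, since Hmgcs1, at -1.03, was under 2-fold in 7 alternatives, with -0.90 as the smallest, Idi1, at -1.01, in 2, with -0.95, and Apol7c, at -1.20, was at -0.77 under 5% mitochondrial UMIs. In Ndrg2-KO members Abca1, which exports cholesterol, was the single sterol gene past 2-fold, at 14.9 CPM in untreated against 79.8 CPM in Ndrg2-KO members. Of 18 antioxidant genes, Hmox1 and Mgst1 were higher and Gclc and Nqo1 lower in Ndrg2-KO members, with Nqo1 at 9.0 and 2.30 CPM. Of these, Hmox1, at 1.03, was under 2-fold in 3 alternatives, with 0.96 as the smallest, and Gclc, at -1.11, in 5, with -0.82.

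In the wound libraries the same rule found 6 of 1948 cells with control DCs, 9 of 5681 with Ndrg2-KO DCs and 17 of 3403 with blank hydrogel, shares of 0.308%, 0.158% and 0.50%. No DCs were given with the blank hydrogel, so its 17 cells came from the host, and for the others the rule does not tell.

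Besides Flt3, other genes had ratios past 2-fold in opposite directions in members and other cells, and these were found by a search over all genes. Igkc was at -1.14 in members and 3.01 in other cells for VD3. For Ndrg2-KO, Car4 was at 1.31 and -1.11 and Sphk1 at -2.64 and 1.76 on the log2 scale.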
